A study of Arabidopsis thaliana with 6 samples.

Results

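The genes described here encode part of the SnRK1 energy sensor of Arabidopsis thaliana and the basic leucine zipper (bZIP) transcription factors that act with it. They were chosen by gene identifier: the kinase subunits KIN10, KIN11 and AKINBETA1, and bZIP1, bZIP11, bZIP53 and bZIP63. These are 7 of the 32744 genes in the deposited tables, and all 7 passed the filter on low counts. Total RNA depleted of ribosomal RNA was sequenced from untreated seedlings grown on medium and harvested at Boyes stage 1.04. One group of 3 libraries was wild type, and the other 3 were labelled as carrying mutations in AT4G15640 together with AT3G21465. The title of the series calls the products of such genes uncharacterised mitochondrial proteins. The design text calls the mutant a knock-out, and the kind of allele at each gene, the number of lines and the number of plants per library are not stated in the sources used here. That text counts 2 biological replicates, whereas library titles run from 1 to 3 in each genotype. Some libraries may therefore share plants, and n = 3 counts libraries in every SD, SE and p-value given here. The p-values therefore reflect variation among these particular libraries, and that variation may be technical.

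SnRK1 is the plant counterpart of yeast SNF1 and animal AMPK. It is a complex of a catalytic alpha subunit (KIN10 or KIN11), a beta subunit that acts as scaffold, and a gamma-type subunit. It is switched on by darkness, hypoxia and other conditions that drain carbon or energy, is held back by trehalose 6-phosphate when sugar is plentiful, and it restrains biosynthesis and growth while promoting catabolism. Part of its transcriptional output runs through bZIP factors of group C and group S1, which bind DNA as heterodimers. KIN10 phosphorylates the group C factor bZIP63, and the S1 factors bZIP1, bZIP11 and bZIP53 activate genes of amino acid breakdown and sugar starvation. Transcripts of S1 factors also carry a conserved upstream open reading frame through which sucrose represses their translation, a step that transcript counts do not show.

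The targeted genes were examined first. AT3G21465 fell from 7.92 ± 0.4997 CPM in wild type to 4.61 ± 0.255 CPM in the other group (SD, n = 3 each, adjusted p = 8.95e-05 by edgeR). That left 0.58 of the wild-type level, with 340 to 385 counts per library, so its transcript was lower but not absent. CPM is the count scaled to an adjusted library total of 1000000, the adjustment being the trimmed mean of M-values (TMM). AT4G15640 had 11.95 ± 1.07 CPM in wild type and 13.4 ± 0.725 CPM in the other group (SD, n = 3 each; adjusted p = 0.121 by edgeR), so its transcript level goes against the label as far as a loss of transcript is concerned. Once wild type replicate 2 was left out, AT4G15640 passed as higher by 0.24 on the log2 scale (adjusted p = 0.0338 by edgeR; range over alternatives 0.0338 to 0.330). The group is therefore called the mutant-labelled libraries, and all directions rest on that label. Total counts per library lay between 53193772 and 78671470. The TMM-adjusted total was below the raw total in every wild-type library (48427565 to 68272517 after adjustment). It was above the raw total in every mutant-labelled library (70843015 to 81635419 after adjustment). Small differences in CPM between the groups, and their absence, therefore depend on this scaling. Transcripts of the green-tissue genes RBCS1A, LHCB1.3 and LHCB2.1 summed to 8092 to 9985 CPM in wild type and 5315 to 6155 CPM in the mutant-labelled libraries. Such levels match the seedling label, but would match other green tissue as well. The 4 floral markers summed to at most 0.413 CPM and the 5 seed storage markers to at most 4.599 CPM.

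The coding sequences of KIN10 (1608 bases) and KIN11 (1539 bases) were 78.7% identical over 1526 aligned bases. Their most alike stretch is shown because the counts of the 2 kinases can be compared only if reads tell them apart. In these 60 coding bases, read 5′ to 3′ on the minus strand of chromosome 3 in the TAIR10.1 genome (chr3:33798-33857 for KIN10, chr3:11131328-11131387 for KIN11), the 5 bases that differ are in capitals.
KIN10: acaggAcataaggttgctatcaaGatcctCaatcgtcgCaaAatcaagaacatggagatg
KIN11: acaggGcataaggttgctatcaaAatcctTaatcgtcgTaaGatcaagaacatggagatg
None of the 7 genes shared a stretch of at least 50 bases at 95% identity with another gene in its exons, so reads with several alignments, which were counted at each of them, bear little on these genes. KIN10 overlapped its neighbour AT3G01100 by 13 bases on the same strand, and the other 6 overlapped no gene on their strand.

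The 250 bases before the annotated start are shown for AKINBETA1 and bZIP63, which fell, and for bZIP11, which rose, because they differ in direction. Capitals mark the sugar-starvation element TATCCA, on either strand, from a search of both strands for ACGT, for the G-box CACGTG that contains it, for the S1 element ACTCAT and for TATCCA. The windows lie on chromosome 5 for AKINBETA1 (chr5:7205227-7205476, plus strand) and bZIP63 (chr5:10798306-10798555, minus strand), and on chromosome 4 for bZIP11 (chr4:16521611-16521860, plus strand), all in TAIR10.1.
AKINBETA1: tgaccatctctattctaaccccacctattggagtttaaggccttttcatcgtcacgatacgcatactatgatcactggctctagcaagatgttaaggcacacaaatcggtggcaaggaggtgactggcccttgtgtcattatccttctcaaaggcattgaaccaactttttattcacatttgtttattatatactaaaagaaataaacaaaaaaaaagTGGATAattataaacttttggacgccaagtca
bZIP63: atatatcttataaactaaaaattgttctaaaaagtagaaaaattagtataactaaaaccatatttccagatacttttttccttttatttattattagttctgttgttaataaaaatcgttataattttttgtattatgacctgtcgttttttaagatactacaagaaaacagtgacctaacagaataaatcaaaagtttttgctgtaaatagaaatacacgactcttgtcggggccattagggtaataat
bZIP11: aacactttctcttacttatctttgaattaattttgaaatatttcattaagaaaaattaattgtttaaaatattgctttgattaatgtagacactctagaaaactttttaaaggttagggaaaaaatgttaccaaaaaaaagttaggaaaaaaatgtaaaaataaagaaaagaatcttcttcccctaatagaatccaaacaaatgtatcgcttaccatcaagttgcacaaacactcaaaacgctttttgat
Of the windows shown, that of AKINBETA1 held TATCCA once, as its reverse complement, beginning 32 bases before the start. It was present in 13.4% of the 32546 nuclear windows of the same length. ACGT, the core recognised by plant bZIP proteins, was not in the windows shown, occurred once each in those of KIN10 and bZIP53, and was present in 42.8% of all windows. The G-box CACGTG (5.90% of all windows) and ACTCAT (12.7%), an element bound by S1 bZIPs in a proline dehydrogenase promoter, occurred in none of the windows of KIN10, KIN11, AKINBETA1, bZIP11, bZIP53 and bZIP63. A match is only a run of letters, and the windows of KIN11, bZIP11 and bZIP63 held none of the 4 motifs.

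In the mutant-labelled libraries KIN10 and bZIP11 transcripts rose, AKINBETA1, bZIP1, bZIP53 and bZIP63 transcripts fell, and KIN11 did not pass the test. Of the 7 genes 6 passed, 2 higher and 4 lower, against 52.4% of all 21805 tested genes in either direction, 26.3% higher and 26.0% lower. All 4 decreases exceeded 2-fold, which 6.54% of tested genes reached as a decrease. That of bZIP53 fell short of 2-fold without wild type replicate 1 or mutant-labelled replicate 3 (log2 fold change -0.96 and -0.98). The increases were below 2-fold, and 7.05% of tested genes rose by more. The median log2 fold change was -1.05 over the 7 genes and 0.01 over all tested genes. The groups did not overlap for 6 of the 7, as for 61.8% of tested genes. With so many genes called over the whole table, a call alone says little about a gene. By size, 0.931% of tested genes had a smaller log2 fold change than bZIP63, 1.58% than bZIP1, 2.47% than AKINBETA1 and 6.14% than bZIP53. KIN10 and bZIP11 had 14.3% and 11.3% of tested genes above them.

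**Figure D1:**
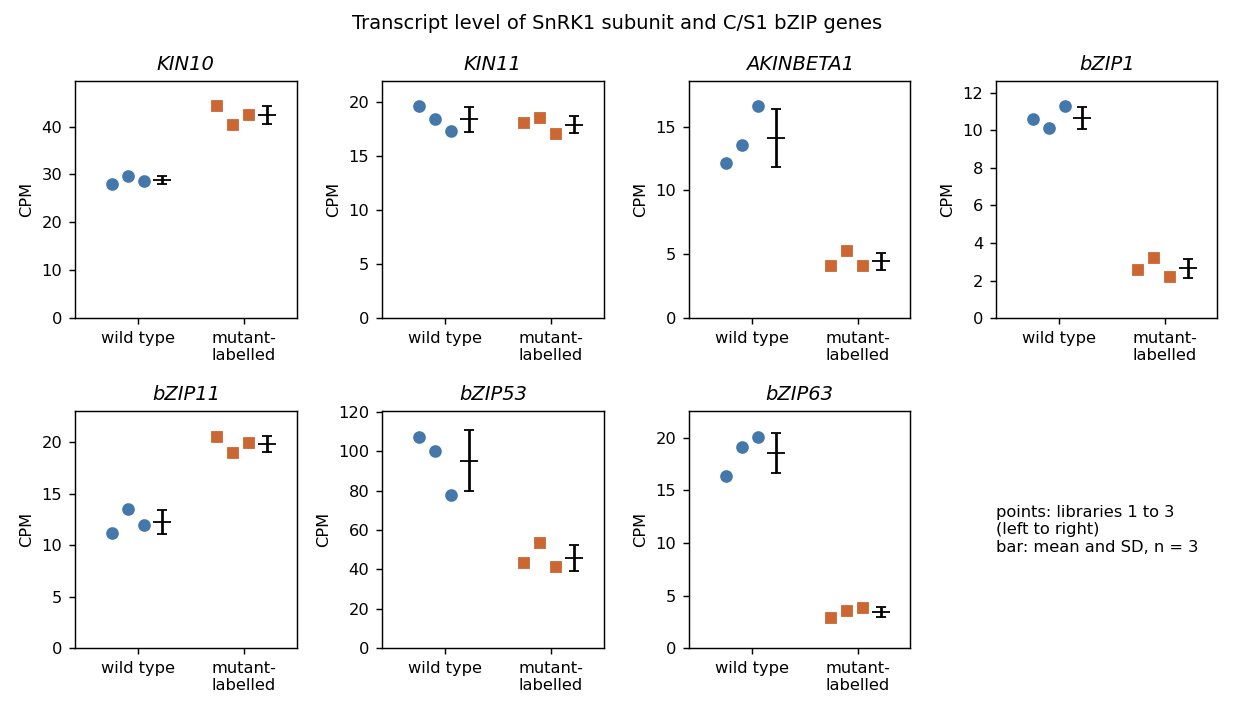
Transcript level (CPM, linear axes from 0) of the 7 genes in each library, with the mean and SD (n = 3) as a bar beside the points. The mutant-labelled libraries lie above all wild-type libraries for KIN10 and bZIP11, below them for AKINBETA1, bZIP1, bZIP53 and bZIP63, and overlap them for KIN11.

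**Figure D2:**
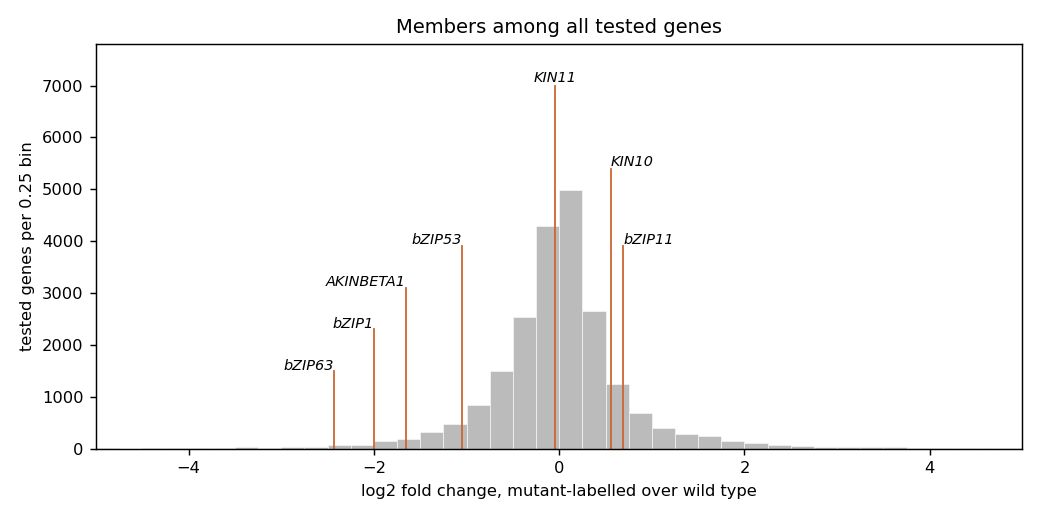
Number of tested genes in bins of 0.25 of log2 fold change (mutant-labelled over wild type, shown from -5 to 5), with a line at the value of each of the 7 genes; line heights only separate the names. bZIP63 at -2.43 and bZIP1 at -1.997 lie in the lower tail, and KIN11 at -0.04 lies at the centre.

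Of the catalytic subunits, KIN10 (AT3G01090, chromosome 3, 31145 to 34670, minus strand, 11 exons), the main SnRK1 kinase, was measured at 28.0, 29.8 and 28.6 CPM in wild type and at 44.2, 40.4 and 42.4 CPM in the mutant-labelled libraries. Every mutant-labelled library was above every wild-type library, and the replicates lay close together, with coefficients of variation of 3.07% and 4.49%. KIN10 rose 1.47-fold (log2 fold change 0.55, SE 0.06; adjusted p = 8.61e-05 by edgeR).

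KIN11 (AT3G29160, chromosome 3, 11128620 to 11132105, minus strand, 11 exons), the second catalytic subunit, had 19.6, 18.4 and 17.3 CPM in wild type and 18.1, 18.6 and 17.1 CPM in the mutant-labelled libraries. The groups overlapped. On the log2 scale the difference was -0.04 (SE 0.07; adjusted p = 0.638 by edgeR), and it turned to 0.003 without wild type replicate 1. The third annotated alpha gene, KIN12 (AT5G39440), had 2 counts in wild type replicate 1 and 0 in the other 5 libraries, where a count of 0 allows up to 3 counts, or 0.0367 to 0.0452 CPM. KIN10 thus made up 55.4%, 58.4% and 59.0% of the counts per kilobase of the 3 alpha genes in wild type and 68.0%, 65.4% and 68.4% in the mutant-labelled libraries. The difference was 9.66 percentage points, larger than the spread within groups (SD 1.95 and 1.61, n = 3 each). Its exact two-sided permutation p was 0.1, the smallest that 3 against 3 libraries allow (adjusted p = 0.1 over 6 shares tested). Summed over the alpha genes, the level per length was 20.6 ± 0.556 CPM per kilobase in wild type and 25.9 ± 0.739 in the mutant-labelled libraries (SD, n = 3 each).

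Of the beta subunits, AKINBETA1 (AT5G21170, chromosome 5, 7205477 to 7208613, plus strand, 5 exons), which is known as a transcript that accumulates in darkness, had 12.1, 13.5 and 16.6 CPM in wild type and 4.07, 5.25 and 4.11 CPM in the mutant-labelled libraries. The highest mutant-labelled library stood well below the lowest wild-type library. It fell 3.15-fold (log2 fold change -1.66, SE 0.14; adjusted p = 2.49e-05 by edgeR). AKINBETA2 (AT4G16360) had 20.6, 19.1 and 17.2 CPM in wild type and 24.2, 22.2 and 22.0 CPM in the mutant-labelled libraries. It was called higher by 0.27 ± 0.08 (log2, SE; adjusted p = 0.0190 by edgeR), but the call ended without wild type replicate 3 or without mutant-labelled replicate 1 (adjusted p over all alternatives 0.00737 to 0.0746). AKINBETA3 (AT2G28060), a short plant-specific beta subunit, did not pass, at -0.18 ± 0.10 (log2, SE; adjusted p = 0.150 by edgeR).

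Shares within the beta genes are given as values, since 3 against 3 libraries cannot give a p below 0.1 and 1 share moves when another does. AKINBETA1 was 29.8%, 34.0% and 41.2% of the beta counts per kilobase in wild type and 11.9%, 15.5% and 12.8% in the mutant-labelled libraries, a difference of -21.6 percentage points (exact permutation p = 0.1, adjusted p = 0.1). AKINBETA2 was 45.8% ± 3.85 and 66.2% ± 2.54 of the pool (SD, n = 3 each). The summed level of the beta genes was 24.6 ± 0.287 CPM per kilobase in wild type and 20.4 ± 0.678 in the mutant-labelled libraries (SD, n = 3 each). That difference depends on the TMM scaling, which lowered library totals in wild type and raised them in the mutant-labelled group. In bulk seedlings a lower level in the same cells and fewer cells that express a gene cannot be told apart.

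Of the gamma-type subunits, SNF4 (AT1G09020), the betagamma protein of the complex, fell slightly, with 32.6 ± 0.577 CPM in wild type against 26.8 ± 0.474 CPM (SD, n = 3) (log2 fold change -0.28, SE 0.05; adjusted p = 0.00176 by edgeR). So small a decrease depends on the TMM scaling. KING1 (AT3G48530) had 36.1 ± 2.76 and 34.2 ± 2.37 CPM (SD, n = 3 each) and did not pass (adjusted p = 0.450 by edgeR). The related PV42a and PV42b, proteins with cystathionine beta-synthase domains, had at most 8 counts in any library and were not tested. Of 4 tested subunit genes outside the 7, 1 was higher and 1 lower, close to the 26.3% and 26.0% of all tested genes.

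Among the bZIP factors, bZIP63 (AT5G28770, BZO2H3 in the reference, chromosome 5, 10796457 to 10798305, minus strand, 4 exons), the group C factor phosphorylated by KIN10, had 16.4, 19.1 and 20.1 CPM in wild type and 2.93, 3.54 and 3.85 CPM in the mutant-labelled libraries. The groups were far apart, and no other member fell as much. The decrease was 5.398-fold (log2 fold change -2.43, SE 0.12; adjusted p = 1.53e-06 by edgeR).

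bZIP1 (AT5G49450, chromosome 5, 20051829 to 20052735, plus strand, 1 exon), an S1 factor of sugar and nitrogen signalling, had 10.6, 10.12 and 11.3 CPM in wild type and 2.55, 3.22 and 2.22 CPM in the mutant-labelled libraries. It fell 3.99-fold (log2 fold change -1.997, SE 0.13; adjusted p = 6.16e-06 by edgeR). These levels rest on 157 to 261 counts per mutant-labelled library and 513 to 769 per wild-type library. bZIP53 (AT3G62420, chromosome 3, 23091586 to 23092850, minus strand, 1 exon), an S1 factor known from proline breakdown and seed maturation, had 107.3, 100.3 and 77.95 CPM in wild type and 43.2, 53.3 and 41.3 CPM in the mutant-labelled libraries. Wild type replicate 3 was the lowest of its group but still above every mutant-labelled library. The decrease was 2.07-fold (log2 fold change -1.05, SE 0.13; adjusted p = 0.000248 by edgeR).

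bZIP11 (AT4G34590, GBF6 in the reference, chromosome 4, 16521861 to 16523230, plus strand, 1 exon), the S1 factor best known for sucrose control of its translation, moved the other way. It had 11.2, 13.5 and 12.0 CPM in wild type and 20.5, 18.95 and 19.9 CPM in the mutant-labelled libraries, with no overlap. It rose 1.61-fold (log2 fold change 0.69, SE 0.08; adjusted p = 0.000130 by edgeR). The 3 S1 genes among the 7 are thus split, bZIP11 higher and bZIP1 and bZIP53 lower, against 26.3% and 26.0% of all tested genes. The groups did not overlap for any of the 3, as for 61.8% of all tested genes.

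The remaining network genes also went both ways. Of the 5 other C/S1 genes, 3 were higher and 1 lower, against 26.3% and 26.0% of all tested genes. The groups did not overlap for these 4, as for 61.8% of all tested genes. The group C genes bZIP10 (AT4G02640) and bZIP9 (AT5G24800) rose by 0.66 ± 0.07 and 0.39 ± 0.07 on the log2 scale (SE; adjusted p = 7.89e-05 and 0.00199 by edgeR), so bZIP63 was the only one of 4 group C genes called lower. bZIP25 (AT3G54620), the other group C gene, did not pass (-0.03 ± 0.05, adjusted p = 0.608 by edgeR). In group S1, bZIP44 (AT1G75390) rose by 0.45 ± 0.09 and bZIP2 (AT2G18160) fell by 0.41 ± 0.08 on the log2 scale (SE; adjusted p = 0.00270 and 0.00322 by edgeR).

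Per length, the 9 C/S1 genes summed to 176 ± 15.2 CPM per kilobase in wild type and 123 ± 4.56 in the mutant-labelled libraries (SD, n = 3 each). The size of this difference also depends on the TMM scaling. bZIP53 held the largest share in every library, 44.8%, 44.0% and 38.5% in wild type and 27.9%, 32.8% and 27.4% in the mutant-labelled libraries. bZIP63 went from 7.35% ± 1.36 to 1.94% ± 0.291 of the pool and bZIP1 from 6.71% ± 0.917 to 2.37% ± 0.367, while bZIP11 went from 5.09% ± 0.677 to 11.7% ± 0.824 (SD, n = 3 each). No group overlapped for any of these 4 shares, and each had an exact permutation p of 0.1 (adjusted p = 0.1). Mean shares of bZIP10 and bZIP9 also rose, from 4.42% to 9.96% and from 4.99% to 9.33%. Those of bZIP25 and bZIP44 rose from 7.69% to 10.7% and from 1.89% to 3.68%. A share can move because other genes of the pool move, so the shares are not independent of each other.

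**Figure D3:**
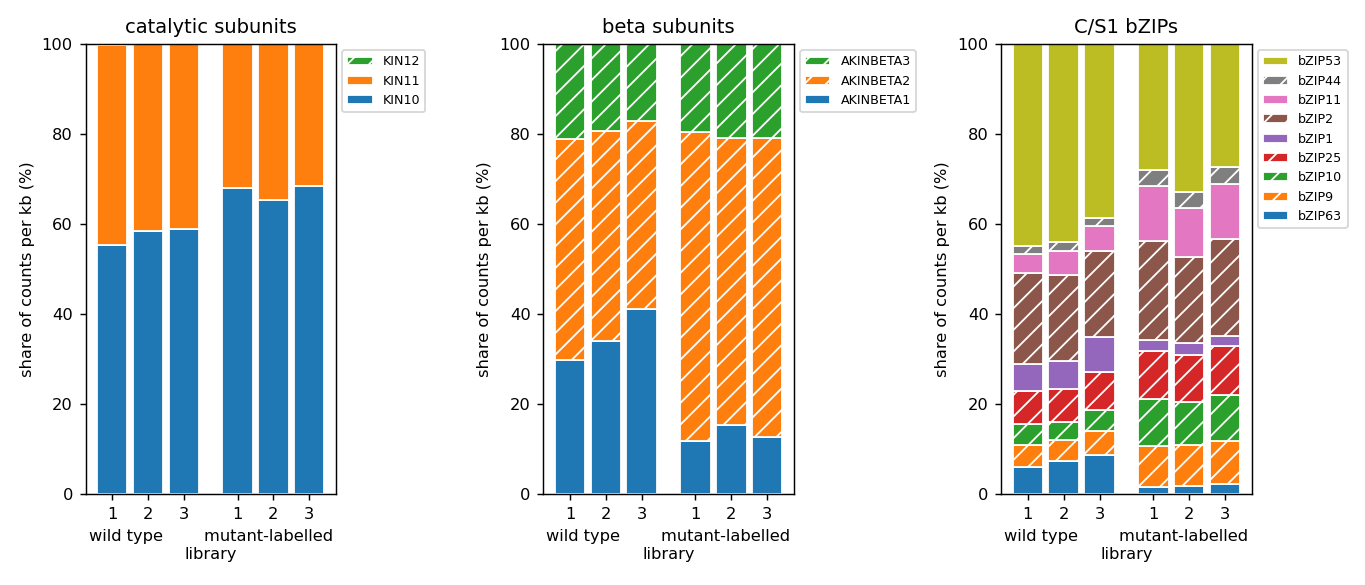
Share (%) of counts per kilobase of exon that each gene took within the catalytic, beta and C/S1 bZIP genes, per library; plain segments are the 7 genes described and hatched segments the other genes of each class. In the mutant-labelled libraries KIN10, AKINBETA2, bZIP11, bZIP10, bZIP9, bZIP25 and bZIP44 took larger shares without overlap between the groups. KIN11, AKINBETA1, bZIP63, bZIP1 and bZIP53 took smaller ones, also without overlap.

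Compared per length, the order of the 7 genes changed. In wild type bZIP53 stood first with 75.2 ± 12.1 CPM per kilobase, followed by bZIP63 (12.8 ± 1.32), KIN10 (11.9 ± 0.365) and bZIP1 (11.8 ± 0.633), whose ranges overlapped from one to the next. bZIP11 (8.93 ± 0.872), KIN11 (8.73 ± 0.548) and AKINBETA1 (8.61 ± 1.39) followed, again with overlapping ranges. In the mutant-labelled libraries bZIP53 (36.3 ± 5.09), KIN10 (17.4 ± 0.783), bZIP11 (14.4 ± 0.576) and KIN11 (8.48 ± 0.363) came in that order without overlap. bZIP1 (2.94 ± 0.565), AKINBETA1 (2.73 ± 0.410) and bZIP63 (2.39 ± 0.327) were last, with overlapping ranges (CPM per kilobase, SD, n = 3 throughout).

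Genes known to be induced by KIN10 or bound by the bZIPs fell in most cases. Of 17 such genes, 14 fell and 1 rose, and their median on the log2 scale was -1.02, against 26.0% lower among all tested genes. The list is a selection of known markers, part of which earlier results of these data had already shown to be lower. By smallest p these were AT3G15450 (SEN5; log2 fold change -3.89 ± 0.18), BT2 (-4.22 ± 0.21), DIN4 (-0.91 ± 0.06) and DIN10 (-4.49 ± 0.31; SE; edgeR adjusted p of 9.10e-06 or less). DIN1 (AT4G35770), a dark-induced senescence gene, had 10.8, 9.73 and 16.2 CPM in wild type and 0.563, 1.51 and 0.833 CPM in the mutant-labelled libraries, and fell by 3.66 ± 0.32 on the log2 scale (SE; adjusted p = 2.83e-05 by edgeR).

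Direct bZIP targets behaved unequally. ProDH1 (AT3G30775) and ProDH2 (AT5G38710), the proline dehydrogenases that start proline breakdown, both fell, each with a log2 fold change of -1.07 (SE 0.23 and 0.21; adjusted p = 0.00455 and 0.00266 by edgeR). TRE1 (AT4G24040), the trehalase raised by bZIP11 in earlier work, fell by 1.02 ± 0.17 on the log2 scale (SE, adjusted p = 0.00128 by edgeR). The bZIP11 transcript was higher, and a link between the 2 in these data was not tested. ASN1 (AT3G47340), the asparagine synthetase known as DIN6 and a classical target of bZIP1, bZIP11 and bZIP53, did not pass: it had 10.6, 10.6 and 16.8 CPM in wild type and 11.7, 14.2 and 15.1 CPM in the mutant-labelled libraries (adjusted p = 0.664 by edgeR). Wild type replicate 3 stood above the rest of its group for ASN1, and without it the gene was called higher by 0.36 (log2; adjusted p = 0.0364 by edgeR; range over alternatives 0.0364 to 0.965). BCAT2 (AT1G10070), a branched-chain aminotransferase, was the 1 gene called higher in all libraries together, 4.08-fold (log2 2.03 ± 0.20, SE; adjusted p = 5.45e-05 by edgeR). IVD, of leucine breakdown, did not pass (adjusted p = 0.663 by edgeR).

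**Figure D4:**
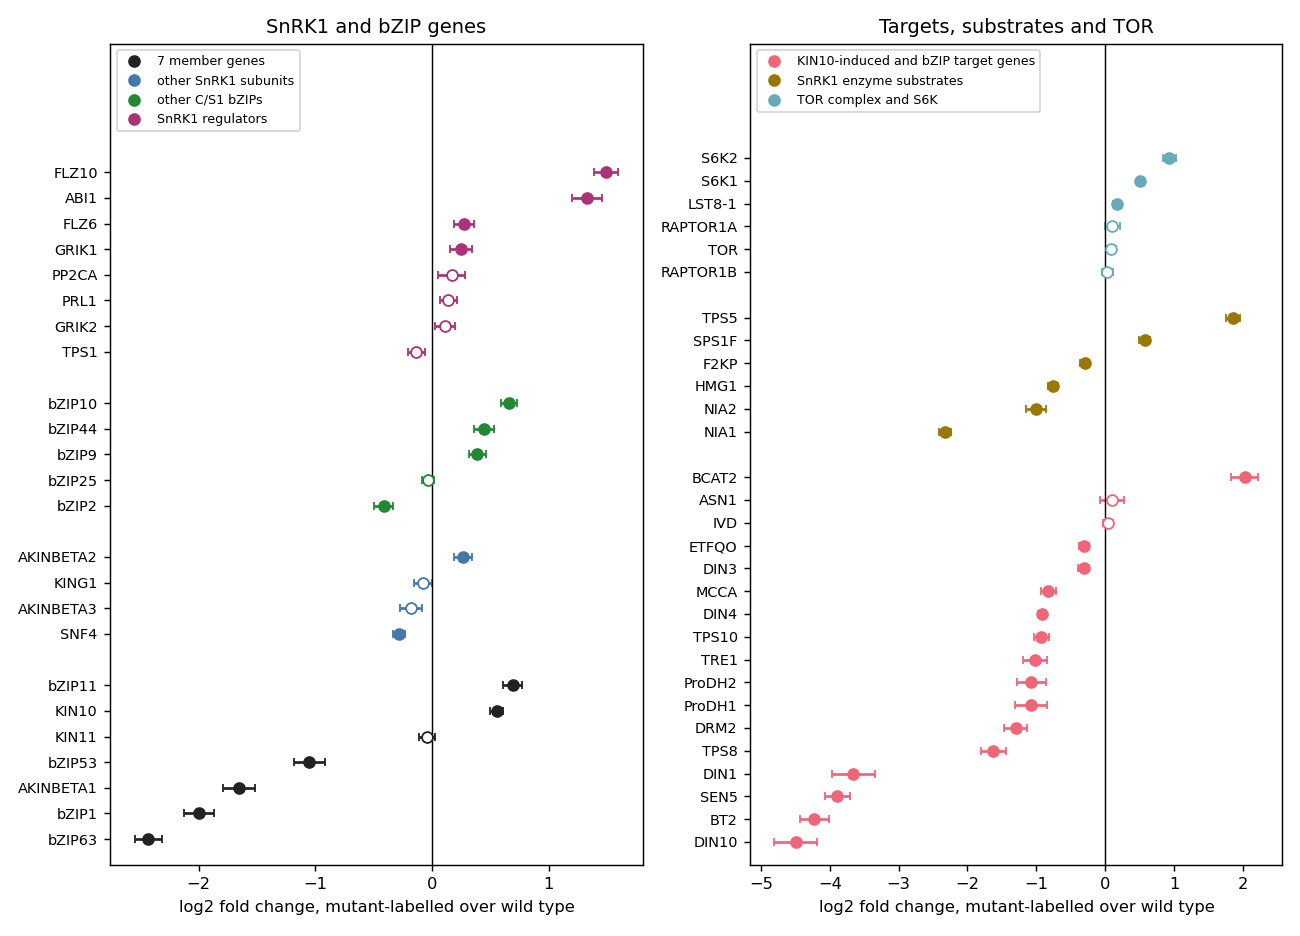
Log2 fold change (mutant-labelled over wild type) with its SE for the tested genes of each list; filled points passed an edgeR adjusted p of 0.05 and open points did not. The 7 genes spread from -2.43 to 0.69, the other subunits and bZIPs from -0.41 to 0.66, and most target genes lie below 0.

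Regulators of SnRK1 moved upward or did not pass. Of 8, 4 were higher and none lower, against 26.3% higher among all tested genes; 2 were higher when wild type replicate 2, wild type replicate 3, mutant-labelled replicate 1 or mutant-labelled replicate 3 was left out. FLZ10 (AT5G11460), one of the FCS-like zinc finger proteins that bind the kinase and repress it, had 1.49, 1.57 and 1.39 CPM in wild type and 4.36, 3.93 and 4.22 CPM in the mutant-labelled libraries, a 2.81-fold increase (adjusted p = 1.08e-05 by edgeR). ABI1 (AT4G26080), a phosphatase that inactivates SnRK1 and abscisic acid kinases, rose 2.51-fold (22.3 ± 3.95 against 55.9 ± 6.13 CPM; SD, n = 3 each; adjusted p = 5.28e-05 by edgeR). FLZ6 (AT1G78020; log2 0.28 ± 0.08, SE, adjusted p = 0.0219 by edgeR) and the activating kinase GRIK1 (AT3G45240; 0.25 ± 0.09, SE, adjusted p = 0.0491 by edgeR) were called higher by small margins. The GRIK1 call ended in 8 of 11 alternatives, among them RLE scaling and the DESeq2 Wald test, and that of FLZ6 in 4. GRIK2, the phosphatase gene PP2CA, the trehalose 6-phosphate synthase gene TPS1 and PRL1 did not pass (adjusted p = 0.309, 0.243, 0.156 and 0.153 by edgeR).

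Enzymes that SnRK1 is known to phosphorylate changed in both directions: of 6, 2 were higher and 4 lower, against 26.3% and 26.0% of all tested genes. The nitrate reductase genes NIA1 (log2 fold change -2.32 ± 0.09) and NIA2 (-1.001 ± 0.14) fell, as did HMG1 (-0.76 ± 0.08) of sterol synthesis and F2KP (-0.30 ± 0.07), which sets the level of fructose 2,6-bisphosphate and shares near-identical sequence with AT3G30200. The sucrose phosphate synthase gene SPS1F rose by 0.58 ± 0.08 and TPS5, a class II trehalose phosphate synthase, by 1.86 ± 0.10 (log2, SE; edgeR adjusted p of 0.00499 or less for all 6). In the TOR pathway, the growth-promoting counterpart of SnRK1, 3 of 6 genes were higher and none lower, against 26.3% and 26.0% of all tested genes. S6K2 and S6K1, the ribosomal protein S6 kinases downstream of TOR, rose by 0.93 ± 0.09 and 0.51 ± 0.05, and LST8-1, a subunit of the complex, by 0.17 ± 0.05 (log2, SE; adjusted p = 5.23e-05, 8.37e-05 and 0.0200 by edgeR). LST8-1 lost its call under DESeq2, without wild type replicate 3 and without any 1 mutant-labelled library (adjusted p over alternatives 0.0200 to 0.0690). TOR, RAPTOR1A and RAPTOR1B did not pass (adjusted p = 0.233, 0.451 and 0.747 by edgeR).

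Markers of single tissues moved beside these genes. Of 6 root markers 3 were higher and 3 lower, against 26.3% and 26.0% of all tested genes. Among them, the endodermal gene CASP1 had a log2 fold change of -2.09 and the hair-cell gene COBL9 of -0.69. RHD6, PLT1 and SHR had 0.87, 1.02 and 0.34. For COBL9 and SHR the groups overlapped (adjusted p = 0.0474 and 0.0333 by edgeR). The summed root marker level was 17.8 to 27.7 CPM in wild type and 15.5 to 17.9 CPM in the mutant-labelled libraries. RBCS1A fell (-1.20), and LHCB1.3, which has 2 near-identical relatives, and LHCB2.1 did not pass. Seed storage markers summed to 0.422 to 4.599 CPM in wild type and 0.0988 to 2.55 CPM in the mutant-labelled libraries, overlapping ranges, beside the decrease of bZIP53. The part of tissue composition in the results was not tested.

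For each of the 7 genes, the 2 tested genes with the most similar profile were those with the smallest Euclidean distance between log2 CPM values, centred on each gene's mean, over the 6 libraries. The closest were AT1G80325 and AT1G67340 for KIN10 (distances 0.0452 and 0.0488), CRR2 and ABCB20 for KIN11 (0.0579 and 0.0692), and ALDH11A3 and AGAL1 for bZIP11 (0.0707 and 0.107). For the genes that fell they were RBP-DR1 and AT5G52882 for AKINBETA1 (0.124 and 0.142), AT4G34760 and AT5G44260 for bZIP1 (0.122 and 0.143), AT5G45480 and UNE11 for bZIP53 (0.210 and 0.214), and GRP9 and AT2G30600 for bZIP63 (0.219 and 0.319). AT2G30600 encodes a BTB/POZ domain protein, AT4G34760 a SAUR-like protein, and AGAL1 an alpha-galactosidase. bZIP63 had the most distant neighbours of the 7. No member of a gene list was among these 14 genes.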

How the data were processed

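Each library has 1 deposited table of raw counts per gene. The submitters' processing notes name STAR, featureCounts and the build TAIR10; the STAR version is not given in the sources used here. Per the file headers, featureCounts 2.0.0 counted reads on the reverse strand, summed exons per gene, counted a read with several alignments at each of them, and assigned no read that overlapped several genes. Per the labels' protocols, the kit was stranded, single-end and depleted ribosomal RNA.

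The test was edgeR 4.0.16 (R 4.3.3), two-sided: filterByExpr, TMM scaling, a quasi-likelihood fit on group alone, Benjamini-Hochberg adjustment over 21805 genes and a threshold of 0.05. SE is the log2 fold change over the square root of F. The fit was also run on simulated counts with far fewer changed genes than were called here. No result in the text rests on that run. Alternatives were RLE scaling, no low-count filter, DESeq2 1.42.0, nuclear genes only, the replicate number as a block, and leaving out each library. Scaling to raw library totals was not among them. Shares used counts per kilobase of exon and an exact permutation test. Within groups, chi-square per degree of freedom between libraries was 11.3 to 39.7, and lowest between mutant-labelled replicates 2 and 3. No library was therefore treated as a repeat sequencing of another. These values cannot show whether libraries share plants.

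Sequences came from the TAIR10.1 RefSeq genome. Of 32548 nuclear genes, 99.95% had the same start and end there, and 96.04% of 116147 introns between the files' exons were GT to AG. A promoter window and a tissue marker are not reported here. Near-identical exon sequence was sought with BLAST+ 2.17.0. The members, lists and tests were chosen with earlier results of these data known. Named genes were the 7 members, other subunits and C/S1 genes, all called members of a list where at most 5 were called in a direction and otherwise the 4 with the smallest p, and the 2 closest profiles; other target genes were chosen after their values were seen.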

Additional observations from a re-analysis of the deposited data

How the results depend on the processing

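The calls and directions of KIN10, AKINBETA1, bZIP1, bZIP11, bZIP53 and bZIP63 were the same under all 11 alternatives. Their log2 fold changes ranged from 0.51 to 0.58, -1.79 to -1.52, -2.16 to -1.88, 0.63 to 0.77, -1.18 to -0.96 and -2.52 to -2.34, with adjusted p of at most 0.00177. KIN11 passed in none, with -0.0866 to 0.00304 on the log2 scale, and was above 0 only without wild type replicate 1. Leaving out 1 library gave 0 to 1 other SnRK1 subunits higher, 2 to 5 SnRK1 regulators higher and 1 to 2 target genes higher; the cause was not tested. The difference in bZIP1 share among C/S1 genes was -4.34 percentage points per length and -3.09 from raw counts. These values differ because bZIP1 has the shortest summed exon length of the pool. Deviations from the group means correlated at r = 0.19, 0.07 and -0.002 between same-numbered libraries, and at -0.145 to 0.0954 between the others. With 3 libraries per group this cannot decide whether the numbers mark a shared batch. The fit with the replicate block made 11373 calls over all genes against 11421 without it, and ended no call of the 7 genes. The 7 genes had at least 157 counts in every library, whereas KIN12, PV42a and PV42b had at most 8, too few to test; equal depth was not tried.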
